A study of Mus musculus with 12 samples.

Results

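miR-132 and miR-212 (mmu-miR-132 and mmu-miR-212 in the scanner files) are the microRNAs (miRNAs) of one short cluster on mouse chromosome 11, and they are the 2 of 577 miRNAs on the arrays that are described here across 4 mouse breast cancer cell lines. They were picked by name in the scanner files, as members of that cluster, and because miR-132 was brightest in the line 4T1, so their levels in 4T1 are given as a description, with no test. The measurements come from 12 one-colour Agilent miRNA arrays, where labelled RNA is caught by short probes and brighter spots mean more of a miRNA. There were 3 arrays for each of 67NR, 168FARN, 4TO7 and 4T1, lines that all came from spontaneous breast cancers of female wild-type Balb/C mice. By its labels 4T1 is metastatic, while 67NR, 168FARN and 4TO7 are not, and no treatment is named. The study used them as a model of tumour progression and asked which miRNAs differ between the metastatic line and the rest. Total RNA, extracted with Trizol, was used at 100 ng per array. With 1 line for the metastatic state, that state and the line itself cannot be told apart. Nothing in the labels says whether the 3 repeats were separate cultures, so the p-values cover the spread of these repeats only, and it may be technical.

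As background, a miRNA is a short RNA that guides a silencing complex to messenger RNAs matching its seed, the bases from position 2 to 8. miR-132 and miR-212 are cut from one primary transcript. In neurons that transcript is switched on by CREB, a factor activated by calcium and neurotrophin signals, and in endothelium miR-132 is known for repressing the Ras inhibitor Rasa1. Loss of the locus in mice has been reported to disturb the growth of mammary ducts. The arrays measure miRNAs only, so CREB itself, its activity and the targets were not measured here.

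The sequences of the 2 members are shown because they share a seed and differ further along, in the part that the probes read. They are RefSeq's, on build GRCm38.p6, and the capitals mark the seed.
miR-132-3p: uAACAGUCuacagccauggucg
miR-212-3p: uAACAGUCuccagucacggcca
Both are 22 bases long and identical at 17 positions. Counted from 1 at the 5′ end, with the base of miR-132 first, the differences are A10C, C14U, U17C, U20C and G22A. All 5 lie within the last 13 bases. Of the 1679 mature mouse miRNA names in the RefSeq table, these 2 alone carry this seed.

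The hairpins from which they are cut are shown next, with the 3p arm in capitals, to place each arm in its precursor.
miR-212 hairpin: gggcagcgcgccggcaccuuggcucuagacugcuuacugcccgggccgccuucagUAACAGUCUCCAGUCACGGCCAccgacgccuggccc
miR-132 hairpin: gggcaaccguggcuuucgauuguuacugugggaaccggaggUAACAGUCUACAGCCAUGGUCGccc
On GRCm38.p6 the miR-212 hairpin lies at chr11:75173388-75173478 and the miR-132 hairpin at chr11:75173682-75173747, both on the plus strand and 203 bases apart. The RefSeq genes of that build place no other gene over them. The nearest coding genes are the tumour suppressor gene Hic1, 3133 bases below the pair, and Ovca2, 2196 bases above it. Each miRNA had 2 probes with 10 spots each. In the files' own build, mm9, the probes of miR-132 target chr11:74987231-74987246 and chr11:74987232-74987246, which are 16 and 15 bases, and those of miR-212 target chr11:74986953-74986966 and chr11:74986954-74986966, which are 14 and 13 bases. The targets of the 2 miRNAs end 280 bases apart in mm9, as the 3p arms do in GRCm38.p6, while the 5p arms there end 282 bases apart. The probes were therefore taken to read the 3p arms, and the 5p arms were not analysed here.

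A probe was called read on an array when most of its spots were well above background by the scanner software. Levels are log2 of the scaled signal, levels under a floor of -5.58 are set to it, and differences are given in log2 with their standard error (SE). The arrays read between 141 miRNAs, on one of 67NR, and 191, on one of 168FARN, and no spot was saturated. The 67NR arrays stood apart. They correlated at 0.539 to 0.636 (Pearson's r across the 224 tested miRNAs, which are not independent) with the arrays of other lines, which correlated among themselves at 0.837 or more. The 20 spots of the control probes named hur_5 averaged 180 to 207 signal units on the 67NR arrays and 1.25 to 6.36 on the others. Slide 1 held the 67NR arrays and replicate 1 of 168FARN, and slide 2 the other 8, so 67NR can be compared within a slide with that 1 array only. Of 7 miRNAs that mark epithelium (the miR-200 family, miR-203 and miR-205), 5 were read on no array, and miR-200c and miR-141 were each read on 1 array of 67NR. Of 9 markers of blood cells and endothelium, 1 was read on all arrays of each line, the endothelial miR-126-3p in 67NR, 4TO7 and 4T1 and the leukocyte miR-142-3p in 168FARN. The summed signal of those 9 was 119 to 150 signal units in 67NR, at most 64.4 in 168FARN, 43.2 to 44.7 in 4TO7 and 48.7 to 70.2 in 4T1.

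miR-132 was read in 4T1 and 67NR and on no array of 168FARN or 4TO7. On its brighter probe the processed signal was 159, 164 and 138 signal units on the 3 4T1 arrays. On the 67NR arrays it was 27.6, 29.1 and 23.5. All 30 spots of this probe were well above background in each of the 2 lines, and the arrays of the 2 lines did not overlap. On the 168FARN arrays the signal was 0.697, 0.560 and 0.257, and on the 4TO7 arrays 3.20, 3.86 and 5.55, with none of 30 spots well above background in either line. The lowest signal of any read probe was 13.3 to 15.9 on the 168FARN arrays and 14.6 to 15.4 on the 4TO7 arrays. The 4TO7 signal lay above that of 84.1 to 89.4% of the unread probes on the same array, and the 168FARN signal above that of 61.5 to 65.7%, but neither is a measured level.

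The dimmer probe of miR-132 was read in 4T1 alone. It gave 82.6, 90.6 and 76.3 signal units in 4T1, where all 30 spots were well above background. In 67NR it gave 15.6, 14.0 and 12.2, with 9 of 30 spots well above background, so that it was not read on any 67NR array. In 168FARN it stayed between -2.69 and 0.137 and in 4TO7 between 0.333 and 0.816, with none of 30 spots well above background in either line. The 67NR signals lay above these on every array, but as none of the 3 lines read this probe, it gives no measured difference among them. The spots of the brighter probe varied on average by 4.51% of their mean (coefficient of variation) on a 4T1 array and by 11.8% on a 67NR array, while the 3 arrays of a line varied by 8.90% and 10.8%.

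**Figure D1:**
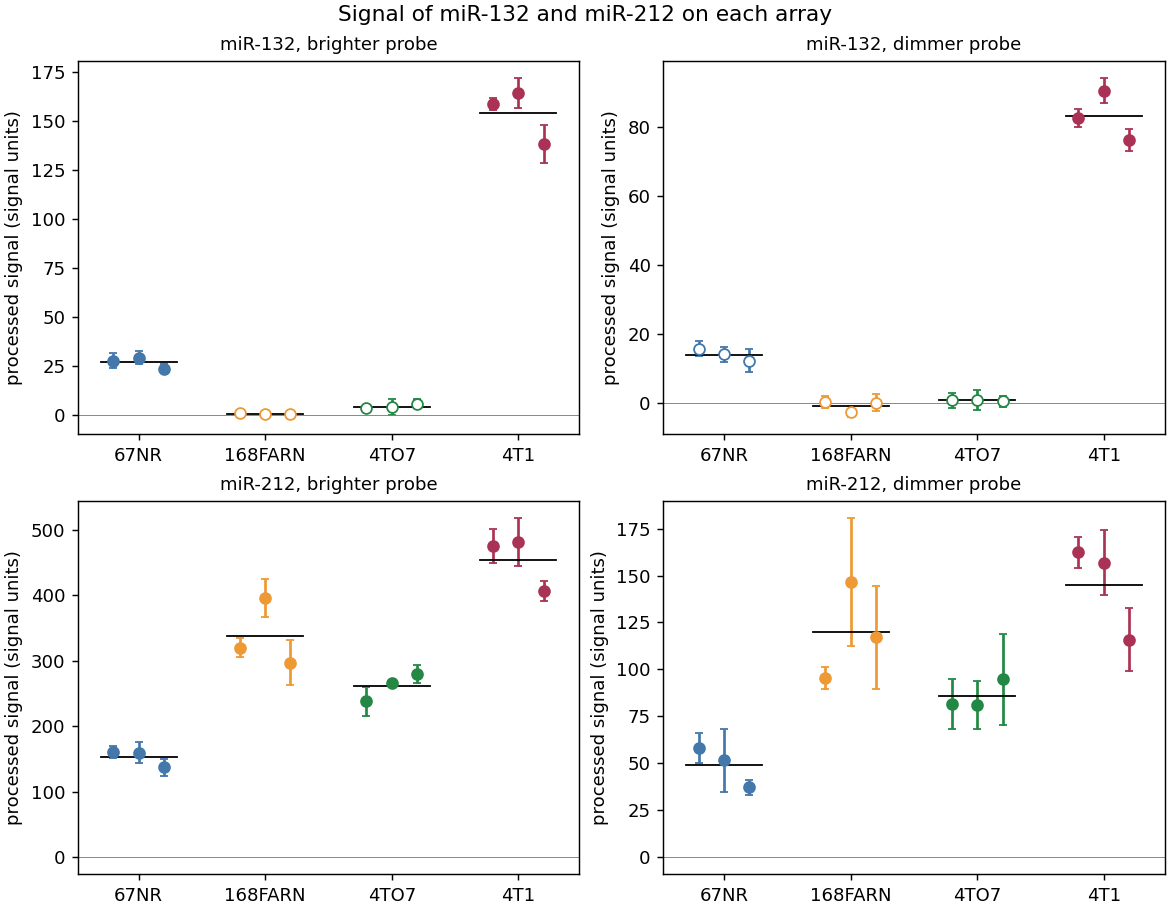
Processed signal (signal units, linear axis) of miR-132 (top) and miR-212 (bottom) on each of the 3 arrays of a line, for the brighter (left) and dimmer (right) probe. Points are the mean of a probe's unmarked spots with the SD over spots, open points were not read, and black lines are means of 3 arrays. miR-132 sits near 0 in 168FARN and 4TO7, while miR-212 is read on all 12 arrays.

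Differences of miR-132 between the 3 non-metastatic lines were tested with limma across all 224 miRNAs read on every array of at least 1 line. The stated reason for choosing miR-132 was its level in 4T1, not these differences. Earlier results of these data were known when it was chosen, so the choice and these tests may not be independent. The level was -3.98 ± 0.07 (SD, n = 3) in 67NR and at the floor on every array of 168FARN and 4TO7. miR-132 was higher in 67NR than in 168FARN, at least 3.03-fold, and the floored difference was 1.60 ± 0.04 (SE; limma adjusted p = 4.22e-12). It was also higher in 67NR than in 4TO7, at least 2.68-fold, with the same floored difference (limma adjusted p = 4.61e-12). A bound sets each unread array at the highest of its lowest read level, the probe's own level and the floor. The size depends on the floor and the scaling: against 168FARN the floored difference was 0.92 with no scaling, 0.96 with normexp, 0.60 with a raised floor and 3.72 with the software's total gene signal. In that comparison the median over all tested miRNAs was 0.62 with normexp, which adds an offset of 50, and -0.35 with no scaling. Arrays at the floor show no spread, so these p-values may be too small. Of all tested miRNAs 87.9% were called in the comparison of 67NR with 168FARN and 79.9% in that with 4TO7, so a call on miR-132 is what most miRNAs gave. Between 4TO7 and 168FARN no difference can be given, since neither line read it, and there 74.6% of the tested miRNAs were called. Within slide 1, where 168FARN has 1 array, the floored difference of 67NR from 168FARN was again 1.60. It could not differ, since all 67NR arrays are on that slide and every 168FARN array lies at the floor.

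For 4T1 the values are a description, because the choice of miR-132 rested on them. Its level there was -2.75 ± 0.06 (SD, n = 3), 1.22 ± 0.04 (SE) above 67NR, which is 2.33-fold. It was at least 7.08-fold above 168FARN and at least 6.25-fold above 4TO7, comparisons that share the 4T1 arrays. The order of the levels was 4T1, then 67NR, then 168FARN and 4TO7 together below the reading limit. In these comparisons 79.5% (67NR), 74.1% (168FARN) and 60.7% (4TO7) of the tested miRNAs were called. 67NR lies wholly on slide 1 and 4T1 on slide 2, so no value within a slide exists for that pair. The other 2 floored differences of 4T1 were 2.82. Leaving the 67NR arrays out of the fit cannot change them, since each rests on the means of its own lines. With the normexp background correction the difference of 4T1 from 67NR was 0.07 ± 0.06, and with no scaling between arrays it was 2.52 ± 0.12. The size of this difference therefore depends on the processing. The median of 4T1 less 67NR over all tested miRNAs moved too, to -0.62 with normexp and 0.14 with no scaling. With normexp, miR-132 in 4T1 stood 1.03 above 168FARN and 1.00 above 4TO7.

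In all, 2 of the 577 miRNAs were read on every 67NR and 4T1 array and on no array of 168FARN or 4TO7. The other was miR-338-3p, known from the nervous system, at -3.77 ± 0.11 in 67NR and -3.96 ± 0.03 in 4T1 (SD, n = 3), so in it 67NR lay above 4T1.

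miR-212 was read on all 12 arrays, including the 6 on which miR-132 was not. Its brighter probe gave 161, 160 and 137 signal units in 67NR and 320, 395 and 297 in 168FARN. The 4TO7 arrays gave 238, 266 and 279, and those of 4T1 475, 481 and 406. In unscaled signal 67NR was lowest and 4T1 highest, and the arrays of 4T1 lay above all the others. Its dimmer probe gave 58.3, 51.5 and 37.0 in 67NR, and on the 168FARN arrays 95.4, 147 and 117. The 4TO7 arrays gave 81.3, 80.8 and 94.7 and the 4T1 arrays 162, 157 and 116, so 168FARN and 4T1 overlapped. All 30 spots of each of the 2 probes were well above background in every line.

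After scaling, the differences of miR-212 between the 3 non-metastatic lines did not pass the test. Its level was -1.47 ± 0.07 in 67NR and -1.52 ± 0.36 in 168FARN (SD, n = 3). For 4TO7 it was -1.27 ± 0.06, and for 4T1 -1.19 ± 0.06. The difference of 67NR from 168FARN was 0.06 (95% interval -0.25 to 0.36; limma adjusted p = 0.739) and from 4TO7 -0.20 (-0.50 to 0.11; limma adjusted p = 0.222). That of 4TO7 from 168FARN was 0.25 (-0.05 to 0.56; limma adjusted p = 0.124). These intervals leave room for differences of up to about the size of their bounds, so the lines are not shown to hold equal amounts. As a description, 4T1 stood above 67NR by 0.27 ± 0.14 (SE), above 168FARN by 0.33 ± 0.14 and above 4TO7 by 0.08 ± 0.14, and its arrays overlapped those of 168FARN and 4TO7.

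The results for miR-212 turned on 1 array and on the scaling. 168FARN replicate 1, the array on slide 1, lay at -1.92, while replicates 2 and 3 on slide 2 lay at -1.23 and -1.41. Its difference from the mean of the other 2 was -0.60, and among the 96 miRNAs read on all 12 arrays only 3 lay further below, with a median of -0.02. For the dimmer probe of miR-212 that difference was -0.96. Without that array the difference of 67NR from 168FARN was -0.14 and that of 4TO7 from 168FARN 0.05. Within slide 1 miR-212 was 0.46 higher in 67NR than on that array (limma adjusted p = 0.0189), and within slide 2 4TO7 was 0.05 above 168FARN (limma adjusted p = 0.545). A slide term, which rests on 168FARN alone, gave 0.41 for 67NR less 4TO7 (limma adjusted p = 0.00468), against -0.62 with the 75th percentile over all probes, -0.75 with quantile scaling and -0.78 with no scaling. With these 3 scalings the difference of 67NR from 168FARN was -0.42, -0.51 and -1.14, so the position of 67NR for miR-212 changed sign between scalings.

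**Figure D2:**
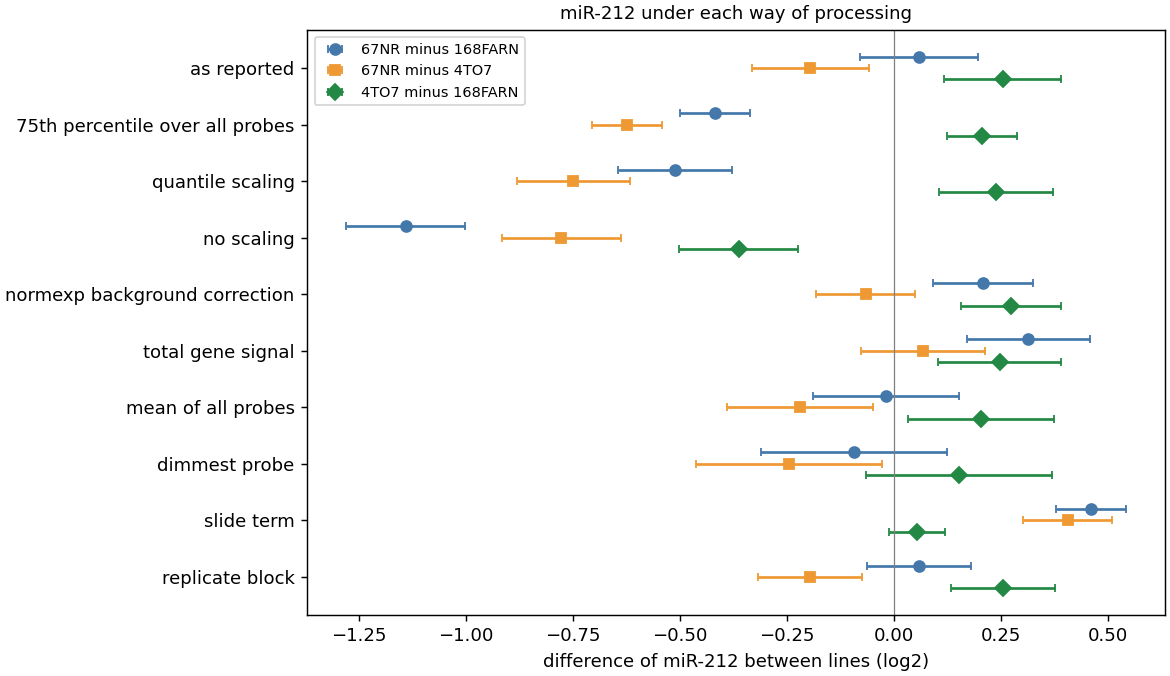
Difference of miR-212 between pairs of the non-metastatic lines (log2, x axis, with SE) under 10 ways of processing the 12 arrays (y axis). 67NR less 168FARN runs from -1.14 with no scaling to 0.46 with a slide term, so its sign depends on the choice.

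The 4 line means of miR-212 spanned 0.33 (log2), the smallest but 2 among the 96 miRNAs read on all arrays, whose median span was 2.02, but the span was 0.98, 0.81 and 1.58 with the 3 other scalings (75th percentile over all probes, quantile and none), against medians of 1.83, 1.86 and 1.88. miR-132 spanned 2.82 with its unread levels at the floor. Over the 12 arrays the levels of miR-132 and miR-212 correlated at 0.33 (Pearson's r; 0.38 by rank), and over the 9 arrays without 67NR at 0.43. Those arrays share the scaling factor, and 6 of the 12 values of miR-132 are the floor.

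Measured signals from one array can be set against each other without any scaling, and the ratio can then be compared between lines. It does not give the relative amounts of the 2 miRNAs, whose probes differ. On the 4T1 arrays the signal of miR-132 was 33.4, 34.1 and 34.1% of that of miR-212. On the 67NR arrays it was 17.2, 18.3 and 17.2%. The 2 lines did not overlap. This gap depends on the background correction. With normexp, 4T1 stood above 67NR by 0.068 (log2) for miR-132 and by 0.069 for miR-212, so the ratio hardly differed between them. There 67NR stood above 168FARN by 0.96 for miR-132 and by 0.21 for miR-212. In 168FARN and 4TO7 the ratio has only an upper bound, 7.95, 4.92 and 5.58% in 168FARN and 6.17, 5.80 and 5.23% in 4TO7. The unread miR-132 was set to the lowest read signal on the 4TO7 arrays and to the higher floor on the 168FARN arrays, so the bounds of 168FARN, unlike the measured ratios, depend on the scaling. With these bounds the ratio was at least 2.91-fold higher in 67NR than in 168FARN and at least 3.07-fold higher than in 4TO7. All 3 arrays of 67NR lay above the bounds, and the exact two-sided permutation test of 3 against 3 arrays gave p = 0.1 for each, the smallest it allows (adjusted over the 2 comparisons, 0.1). This design cannot reach the 5% level, and the test used bounds for 168FARN and 4TO7, so it decides nothing. In the processed signal the 2 miRNAs thus differed unequally between lines, as a description, and the cause was not tested.

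**Figure D3:**
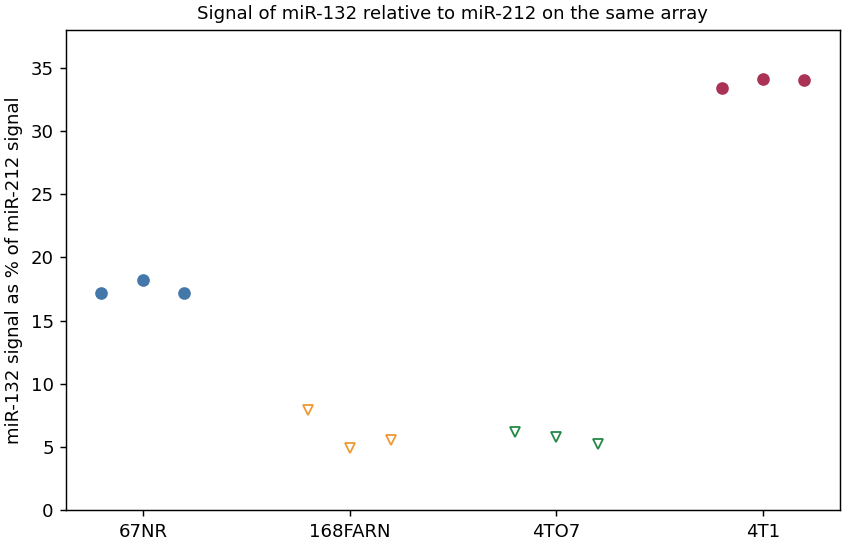
Signal of miR-132 as a percentage of the signal of miR-212 on the same array (y axis, from 0), for the 3 arrays of each line. Filled points are measured and open triangles are upper bounds; 4T1 sits at 33.4 to 34.1%, 67NR at 17.2 to 18.3% and the bounds of 168FARN and 4TO7 at or under 7.95%.

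Of the miRNAs on the arrays, those within 1 Mb of the cluster were miR-22, at chr11:75277277-75277295 in mm9, and miR-22*, its passenger strand. miR-22, a miRNA abundant in heart and skeletal muscle, was highest in 168FARN, at 0.45 ± 0.05, then 4TO7 at -0.31 ± 0.05, 4T1 at -0.55 ± 0.03 and 67NR at -1.58 ± 0.03 (SD, n = 3). It was lower in 67NR than in 168FARN (log2 difference -2.03 ± 0.04 (SE); limma adjusted p = 2.92e-13) and than in 4TO7 (-1.27 ± 0.04; limma adjusted p = 2.26e-11), whereas miR-132 was higher in 67NR than in each of them. As a description, the difference of 4T1 was -0.997 ± 0.04 from 168FARN, -0.23 ± 0.04 from 4TO7 and 1.03 ± 0.04 from 67NR. miR-22* was read on all 168FARN and 4T1 arrays, on 1 of 4TO7 and on none of 67NR.

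Within 5 Mb of the cluster lay 11 other miRNAs, miR-22 and miR-22* among them. Of these 9 could be tested, since miR-144 and miR-451, known from red blood cells, were read on no array. The 9 hold both strands of miR-22, miR-423 and miR-193 and the close neighbours miR-195 and miR-497, so they are not independent. In 67NR less 168FARN 3 were higher and 6 lower (median -0.90, against 0.06 over all tested miRNAs, of which 47.8% were higher and 40.2% lower), with miR-423-5p at 1.68 ± 0.04 (SE) and miR-497, a relative of miR-16, at -1.65 ± 0.08 beside miR-22. In 67NR less 4TO7 4 were higher and 4 lower (median -0.07, against 0.12, with 48.2% of all higher and 31.7% lower), and in 4TO7 less 168FARN 2 were higher and 5 lower (-0.54, against 0.00, with 35.3% of all higher and 39.3% lower). In 4T1, as a description, 4 were higher and 4 lower against 67NR (median -0.05, against -0.05 over all, with 32.1% of all higher and 47.3% lower). Against 168FARN none were higher and 6 lower (-0.62, against 0.00, with 34.4% of all higher and 39.7% lower), and against 4TO7 2 were higher and 4 lower (-0.12, against 0.00, with 25% and 35.7%). miR-423-3p was read in 67NR alone, through which it entered the test. Its calls as higher in 67NR, and as lower in 4T1 than in 67NR, were thus set by the filter and the floor. The higher call of miR-365 in 67NR against 168FARN came with the scaling. Its unscaled signal was 179 in 67NR and 367 in 168FARN, while that of miR-423-5p was 146 and 106.

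**Figure D4:**
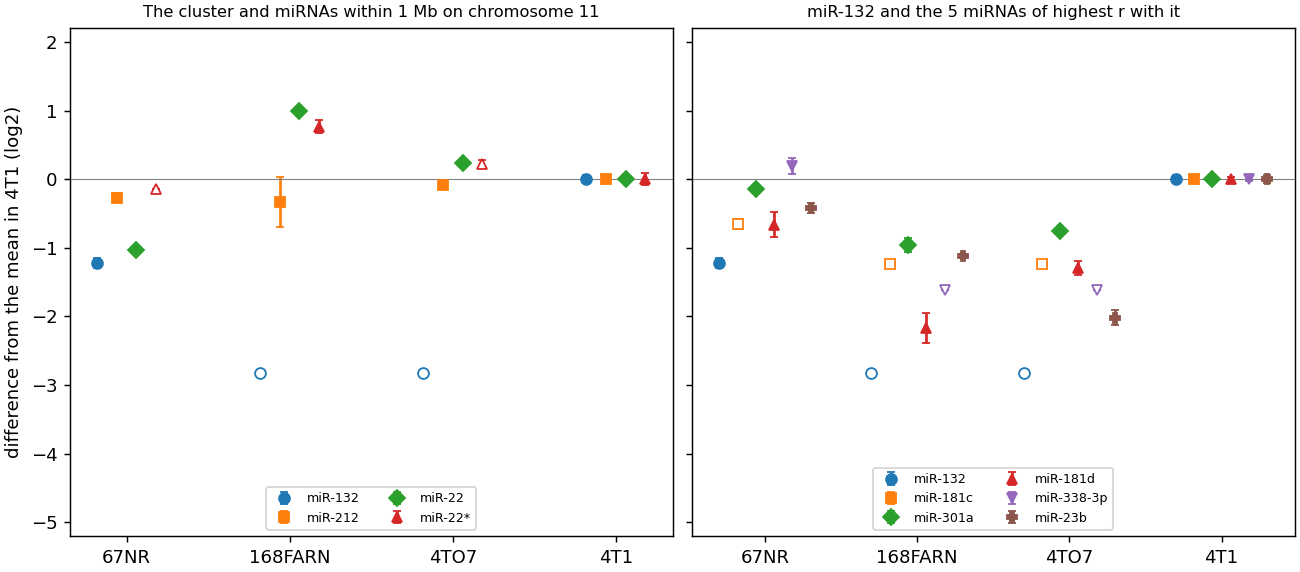
Mean level of each miRNA less its own mean in 4T1 (log2, y axis) in the 4 lines, with the SD of 3 arrays, for the cluster and miR-22 (left) and for miR-132 and the miRNAs most like it (right). Open points are lines in which not all arrays read the miRNA; miR-132 and miR-22 lie on opposite sides of 0 in 168FARN and 4TO7.

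The miRNAs most like miR-132 were taken by Pearson's r over the 12 arrays among 164 candidates read on all 4T1 arrays. miR-181c had r = 0.994, but it was read on no array outside 4T1. miR-301a followed at 0.949, miR-181d at 0.908, miR-338-3p at 0.898 and miR-23b at 0.896. Without the 67NR arrays these values were 1.000, 0.972, 0.909, 1.000 and 0.893. miR-181c and miR-338-3p were at the floor on every 168FARN and 4TO7 array, as miR-132 was. Their 1.000 was thus largely set by the floor and is no measure of likeness. miR-301a, miR-181d and miR-23b were read on all 12 arrays. miR-301a had the highest level in 4T1 at -0.28 ± 0.03, then 67NR at -0.43 ± 0.04, and was lower in 4TO7 at -1.04 ± 0.02 and 168FARN at -1.24 ± 0.10 (SD, n = 3). miR-23b ran from -0.93 ± 0.06 in 4T1 through -1.35 ± 0.07 in 67NR and -2.05 ± 0.02 in 168FARN to -2.95 ± 0.11 in 4TO7. These correlations rest on 4 lines, in 2 of which miR-132 has no measured level. For miR-212 no miRNA came above 0.661 (miR-20a*), and miR-365, read on all arrays, had 0.644.

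Of a list of 16 other miRNAs tied to CREB or to neuronal activity, such as miR-9, miR-128 and miR-218, 8 could be tested, and 7 of those were higher in 67NR than in 168FARN and than in 4TO7. miR-124 and miR-137, which define neurons, and miR-134 were read on no array. In 67NR 7 were higher and 1 lower than in 168FARN (median 1.09, against 0.06 over all tested miRNAs, of which 47.8% were higher and 40.2% lower), and 7 higher and none lower than in 4TO7 (1.22, against 0.12, with 48.2% higher and 31.7% lower). In each of these the 7 include miR-181c, which no 67NR, 168FARN or 4TO7 array read. The calls against 168FARN depend on the scaling. In unscaled signal miR-9* (56.6 in 67NR, 68.5 in 168FARN) and miR-219 (18.9 and 24.6) were lower in 67NR. miR-9 was nearly level (53.2 and 52.6), while miR-128, miR-218 and miR-34a were higher in 67NR. Against 4TO7 the 7 were higher in unscaled signal too. miR-218 was read in 67NR alone, through which it entered the test, with 5.34 between it and the floor in the other lines. miR-128 was 3.11 ± 0.06 (SE) above 168FARN and 3.46 ± 0.06 above 4TO7. The miR-34 members of the list differed from each other, the difference of 67NR from 168FARN being 1.90 ± 0.05 for miR-34a and -1.24 ± 0.05 for miR-34c. Only 168FARN arrays read miR-34c, and it entered the test through them.

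For 4T1 the list is given as a description. Against 67NR 1 was higher and 6 were lower (median -1.53, against -0.05 over all, with 32.1% of all higher and 47.3% lower), with a difference of -4.87 ± 0.05 for miR-34a and -3.58 ± 0.06 for miR-128. Against 168FARN 2 were higher and 5 lower (-0.37, against 0.00, with 34.4% of all higher and 39.7% lower), with -2.98 ± 0.05 for miR-34a and -1.02 ± 0.08 for miR-9*. Against 4TO7 2 were higher and 1 lower (-0.06, against 0.00, with 25% of all higher and 35.7% lower), the higher ones being miR-34a (1.68 ± 0.05), which was read on no 4TO7 array, and miR-181c, read in 4T1 alone. Between 4TO7 and 168FARN 1 was higher and 4 were lower in 4TO7 (-0.21, against 0.00, with 35.3% of all higher and 39.3% lower), and miR-9 was the higher one at 0.53 ± 0.10.

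Rasa1, which miR-132 is known to repress in endothelium, has also been reported as a target of miR-31, miR-21, miR-182 and others, 7 of which were listed and 4 tested. The difference of 67NR from 168FARN was -3.40 ± 0.03 (SE) for miR-31 and -4.08 ± 0.06 for miR-21, and the tested 4 were all lower in 67NR (median -3.74, with 40.2% of all tested miRNAs lower). These 4 include miR-206, a muscle miRNA read in 168FARN alone, through which it entered the test. Its lower calls against 168FARN, here and below in 4TO7 and 4T1, were thus set by the filter and the floor. Against 4TO7 3 were lower in 67NR (median -3.70, with 31.7% of all lower). In 4TO7 2 were higher and 2 lower than in 168FARN (-0.04, with 35.3% of all higher and 39.3% lower). As a description, 3 were higher in 4T1 than in 67NR (with 3.84 as the median and 32.1% of all higher). Against 168FARN 2 were higher and 1 lower in 4T1 (0.10, with 34.4% and 39.7% of all), and against 4TO7 1 was higher and 2 lower (-0.08, with 25% and 35.7%). miR-182 was read on no 67NR array and on all others. In 168FARN and 4TO7, where miR-132 was not read, miR-31, miR-21 and miR-182 were read on every array.

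The shares of higher and lower calls depended on how the arrays were processed. Out of the 224 tested miRNAs, 67NR had 107 higher and 90 lower than 168FARN, against 72 and 107 with no scaling and 155 and 50 with normexp, the latter among 223. Against 4TO7 it had 108 and 71, against 150 and 47 with normexp. 4TO7 had 79 higher and 88 lower than 168FARN, against 38 and 127 with no scaling and 100 and 54 with normexp. 4T1 had 72 higher and 106 lower than 67NR, against 90 and 87 with the 75th percentile over all probes, 91 and 90 with quantile scaling, 104 and 66 with no scaling and 39 and 171 with normexp. Against 168FARN it had 77 and 89, against 93 and 73 with that percentile and 94 and 79 with quantile scaling. Against 4TO7 it had 56 and 80, against 80 and 40 with that percentile, 105 and 7 with no scaling and 30 and 118 with normexp.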

How the data were processed

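The deposited intensity values are the processed signals of the spots, which per the file headers came from Agilent Feature Extraction 10.2.1.3 with a spatially detrended background subtracted and no scaling between arrays. The deposited value table equals them (largest difference 0). Control spots and 284 to 508 marked spots per array were left out, a probe's spots were averaged, and signals were scaled to the array's 75th percentile, taken from the 170 probes (of 1712) that all 12 arrays read. The floor (0.0209) is the median over arrays of the lowest read value. The brighter probe stood for a miRNA. limma 3.58.1 in R 4.3.3 fitted the 4 lines to 12 arrays (8 residual degrees of freedom), with Benjamini-Hochberg adjustment over 224 miRNAs and a threshold of 0.05, and was tested on simulated data. The members and lists were chosen with earlier results of these data known. The miRNAs named were the members, the 5 of highest r with each, neighbours within 1 Mb or of largest difference, and up to 4 of a list in order of adjusted p, with others given as examples after their values were seen. Alternatives covered scaling, background correction, probes, floor, filter, variance, slide, replicate number and left-out arrays. The number of arrays limits the precision.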

Additional observations from a re-analysis of the deposited data

How the results depend on the processing

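The higher level of miR-132 in 67NR than in 168FARN and 4TO7 kept its direction and call in every alternative that used a probe read in 67NR, with floored differences of 0.60 to 3.72 and limma adjusted p of 1.00e-13 to 0.0017 against 168FARN and 1.46e-13 to 2.65e-06 against 4TO7. This leaves out the dimmest probe (0.66), which neither 67NR nor the line compared read and which says nothing of the call. With normexp, miR-132 in 67NR stood 0.96 above 168FARN and 0.93 above 4TO7. The medians over all tested miRNAs were then 0.62 and 0.48, so part of these values was shared by most miRNAs. For 4T1 less 67NR the normexp median was -0.62. Other values moved, and except where fewer miRNAs or arrays were used the cause was not tested. For miR-132 the 4T1 difference from 168FARN and from 4TO7 was 3.05 for both with the 75th percentile over all probes, 4.82 and 4.51 with a lowered floor, 1.82 for both with a raised floor, 1.94 with the dimmest probe, 2.38 with the mean of probes, 3.44 with no scaling, 3.02 with quantile scaling, 4.55 with the software's total gene signal, and 1.03 and 1.00 with normexp. From 67NR it was 1.93 (all probes), 2.52 (no scaling), 0.068 (normexp), 1.83 (quantile) and 0.82 (total gene signal). For miR-212, 4T1 less 4TO7 was 0.36 (all probes), 0.80 (no scaling), 0.0021 (normexp) and -0.078 (total gene signal). 4T1 less 67NR was 0.98 (all probes), 1.58 (no scaling), 0.069 (normexp), 0.81 (quantile), -0.33 (slide term) and -0.15 (total gene signal). 4TO7 less 168FARN was 0.20 (all probes, limma adjusted p = 0.0429) and -0.36 (no scaling, 0.0267). 67NR less 168FARN was -0.42 (all probes, limma adjusted p = 0.000447), -0.094 (dimmest probe, 0.734), -0.018 (mean of probes, 0.993), -1.14 (no scaling, 8.91e-07), -0.51 (quantile, 0.00396) and 0.46 with a slide term (0.000386) and within slide 1 (0.0189). 67NR less 4TO7 was -0.62 (all probes, limma adjusted p = 1.74e-05), -0.78 (no scaling, 7.42e-05), -0.20 (the 2 lines alone, 0.0177), -0.75 (quantile, 0.000298), 0.41 (slide term, 0.00468) and 0.067 (total gene signal, 0.709). Among the 96 miRNAs read on all arrays, where miR-132 has no value, the calls were 91 (67NR and 168FARN), 86 (67NR and 4TO7), 75 (4TO7 and 168FARN), 87 (4T1 and 67NR), 78 (4T1 and 168FARN) and 70 (4T1 and 4TO7), since fewer were tested. Signals near the reading limit bound what can be said of miR-132 in 168FARN and 4TO7.

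Leaving out 1 array gave 1.58 to 1.64 for miR-132 in 67NR against 168FARN or 4TO7, 1.18 to 1.25 for 4T1 less 67NR and 2.79 to 2.84 for 4T1 less 168FARN or 4TO7. For miR-212 it gave -0.14 to 0.20 (67NR less 168FARN), -0.23 to -0.17 (67NR less 4TO7), 0.053 to 0.40 (4TO7 less 168FARN), 0.24 to 0.31 (4T1 less 67NR), 0.13 to 0.48 (4T1 less 168FARN) and 0.04 to 0.11 (4T1 less 4TO7). The sign turned without 168FARN replicate 1 (-0.14), and without 168FARN replicate 2 the difference of 4TO7 from 168FARN passed the test (0.40, limma adjusted p = 0.0162).

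The labels do not say whether the replicate numbers pair the samples. Correlations of each array's deviations from its line mean neither showed nor excluded a pairing. Of 18 correlations between same-numbered arrays of different lines, 6 were over 0.1 (range -0.80 to 0.56), and in 5 of 18 cases an array correlated best with its own number. Every line holds each replicate number once, so a block on that number cannot change the differences and bears only on their spread. The differences thus remain 1.60 for miR-132 and 0.06, -0.20 and 0.25 for miR-212. With this block the comparisons of 67NR with 168FARN, 67NR with 4TO7 and 4TO7 with 168FARN had 194, 178 and 163 calls. For miR-212 their limma adjusted p was 0.701, 0.179 and 0.0922. Leaving out the 67NR arrays, an alternative chosen after seeing the data, cannot change the 0.25 of 4TO7 less 168FARN for miR-212 either. Its limma adjusted p was then 0.216.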
